A study of Mus musculus with 2 samples.

Results

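Type 2 innate lymphoid cells (ILC2) were selected on raw counts of unique molecular identifiers (UMIs, single captured RNA molecules) among CD45+ cells sorted from mouse tumours. A barcode was chosen by at least 1 UMI of Gata3 and at least 2 UMIs summed over Il1rl1, Il13, Il5 and Areg. It also had at most 1 UMI summed over Cd3e, Cd3d and Cd3g, at most 2 UMIs each of Cpa3 and Mcpt8, and at most 1 UMI summed over Csf1r and Csf3r. The rule found 90 cells among 9255 barcodes with 200 or more genes, 51 of 3490 after placebo and 39 of 5765 after E2. Both libraries came from C57BL6\J mice whose ovaries had been removed. One group then received placebo and the other E2 (estradiol, the main ovarian estrogen), and live CD45+ cells were profiled by 3′ droplet sequencing, with 1 library per group. The labels do not state the tumour type, the age of the animals, the dose and duration of E2 and how many animals were pooled.

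ILC2 are tissue lymphocytes without a rearranged antigen receptor. They depend on the transcription factors GATA3 and RORα and answer alarmins released by damaged barrier cells, of which IL-33 binds ST2 (the product of Il1rl1), IL-25 binds the receptor encoded by Il17rb and TSLP the one encoded by Crlf2. Once activated they secrete IL-5, which sustains eosinophils, IL-13, which acts on epithelium and macrophages, amphiregulin, an epidermal growth factor family ligand that takes part in tissue repair, and GM-CSF. Neuropeptides such as CGRP are known to act on them.

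With 1 library per group there was no replicate check, and treatment and library cannot be told apart. No p-value was computed. The 95% intervals below (exact Clopper-Pearson for shares, exact conditional binomial for ratios) cover counting error only, and cells of 1 library are not replicates of a treatment. Intervals of CPM ratios treat each UMI as an independent draw. They do not cover the spread between cells and are too narrow where few cells hold most UMIs. The placebo ILC2 held 370946 UMIs and the E2 ILC2 296774, with medians of 7376 (range 521 to 14784) and 6414 (range 837 to 37709) UMIs per cell. In the E2 library 4 ILC2 were deeper than any placebo ILC2, and these held 32.8% of the E2 ILC2 UMIs. Doublet scores marked 1 placebo and 2 E2 ILC2, including 1 of those 4 deep cells, and no cell was removed for its score in the main results. The libraries shared 95 barcode sequences. No placebo ILC2 barcode was present in the E2 library and 1 E2 ILC2 barcode was present in the placebo library, where it was not an ILC2.

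The genes that chose the cells are a description and support nothing. Levels are UMIs of a gene per 1000000 UMIs (CPM), summed over the ILC2 of a library. Gata3 stood at 825 CPM in the placebo ILC2 and 869 CPM in the E2 ILC2, and Il1rl1 at 809 and 724 CPM. Areg stood at 1812 and 2878 CPM. Of the 90 cells, 83 held a UMI of Il1rl1, 63 of Areg, 26 of Il13 and 22 of Il5. A single one of these 4 genes carried 25 cells, 33 cells held 2 of them, 25 held 3 and 7 held all 4. Only 4 cells were chosen on Areg alone, and 38 held Il13 or Il5.

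Cells close to the limits of the rule differed in other genes. The 13 ILC2 with exactly 1 Gata3 UMI had 516 CPM of Rora, and the 149 barcodes that met every other limit but had 0 Gata3 UMIs had 54.8 CPM of Rora and 680 CPM of the myeloid lysozyme gene Lyz2. The 12 ILC2 with exactly 2 UMIs over Il1rl1, Il13, Il5 and Areg had 667 CPM of Rora and 23.8 CPM of Lyz2, and the 12 barcodes with 1 such UMI had 735 CPM of Rora and 839 CPM of Lyz2. Among the 10 ILC2 with 1 CD3 UMI, Trac, the constant region of the T cell receptor alpha chain, stood at 107 CPM. It stood at 300 CPM in the 20 barcodes that would have been ILC2 but for 2 CD3 UMIs. Rora did not separate these sides, at 749 CPM in the 10 ILC2 and 971 CPM in the 20 barcodes. Foxp3 stood at 171 and 230 CPM. At the Gata3 limit Trac and Foxp3 were higher inside the rule. Trac stood at 141 CPM in the 13 ILC2 and 28.2 CPM in the 149 barcodes, and Foxp3 at 164 and 26.6 CPM. Both were also higher in the ILC2 with 2 UMIs over the 4 genes than in the barcodes with 1. Trac stood at 167 and 20.99 CPM there, and Foxp3 at 143 and 41.97 CPM. Over all ILC2, Trac was at 43.1 CPM in placebo and 47.2 CPM in E2, and Foxp3 at 37.7 and 16.8 CPM.

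Outside the rule, some identity genes of ILC2 were higher in these cells than in T cells and others were not. Rora, the one marker of the cell type that the rule did not use, stood at 849 CPM in placebo and 762 CPM in E2 ILC2. It was at 595 and 435 CPM in regulatory T cells (Foxp3 with 2 or more CD3 UMIs, 446 and 376 barcodes), 362 and 327 CPM in the other T cells (672 and 561 barcodes), and 30.6 and 42.2 CPM in NK/ILC1-like cells (46 and 99 barcodes). At a common depth of 2000 UMIs per cell, 78.3% of 46 placebo ILC2 (95% interval 63.6 to 89.1%) and 72.4% of 29 E2 ILC2 (52.8 to 87.3%) held a Rora UMI, against 84.3% and 79.5% of all ILC2 at full depth. Barcodes with 2 or more Csf1r or Csf3r UMIs and no CD3 UMI, which should lack lymphoid genes, held one in 0.828% and 1.02% of cells at the same depth (medians of 9040 and 9380 UMIs before thinning). Shallower cells, 5 placebo and 10 E2 ILC2, were left out of these shares. A UMI of Rora or of Il7r, the IL-7 receptor alpha chain, was present in 85 of the 90 cells.

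Id2, a repressor of T and B cell programmes, stood at 917 and 1045 CPM in the ILC2, against 609.8 and 419.5 CPM in regulatory T cells. Il17rb, the IL-25 receptor subunit, was low in absolute level at 80.9 and 60.7 CPM, but the regulatory T cells had 10.9 and 8.81 CPM. Arg1, which encodes arginase 1, stood at 313 and 263 CPM, against 9.79 and 1.20 CPM in regulatory T cells. Arg1 was not particular to the ILC2, since all other barcodes together had 266 and 44.1 CPM of it. Of the barcodes with 2 or more Csf1r or Csf3r UMIs, 20.2% in placebo and 9.07% in E2 held an Arg1 UMI at full depth. Klrg1, an inhibitory receptor of mature ILC2, was at 40.4 and 20.2 CPM, and Ptgdr2, the prostaglandin D2 receptor CRTH2, and Zbtb16, a transcription factor of ILC precursors, had 0 UMIs in both libraries. Other identity genes had lower summed levels than in regulatory T cells, though Il7r and Bcl11b lay close to them in E2. Il7r stood at 534 and 502 CPM against 688 and 514 CPM there, Icos, a costimulator, at 528 and 357 CPM against 1334 and 1049 CPM, and Il2ra, the IL-2 receptor alpha chain, at 496 and 674 CPM against 1167 and 820.1 CPM. Bcl11b, a transcription factor of T cells and ILC2, stood at 280.4 and 276 CPM against 410.4 and 301 CPM. A count of 0 allows up to 8.09 CPM in the placebo ILC2 and 10.1 CPM in the E2 ILC2.

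**Figure D1:**
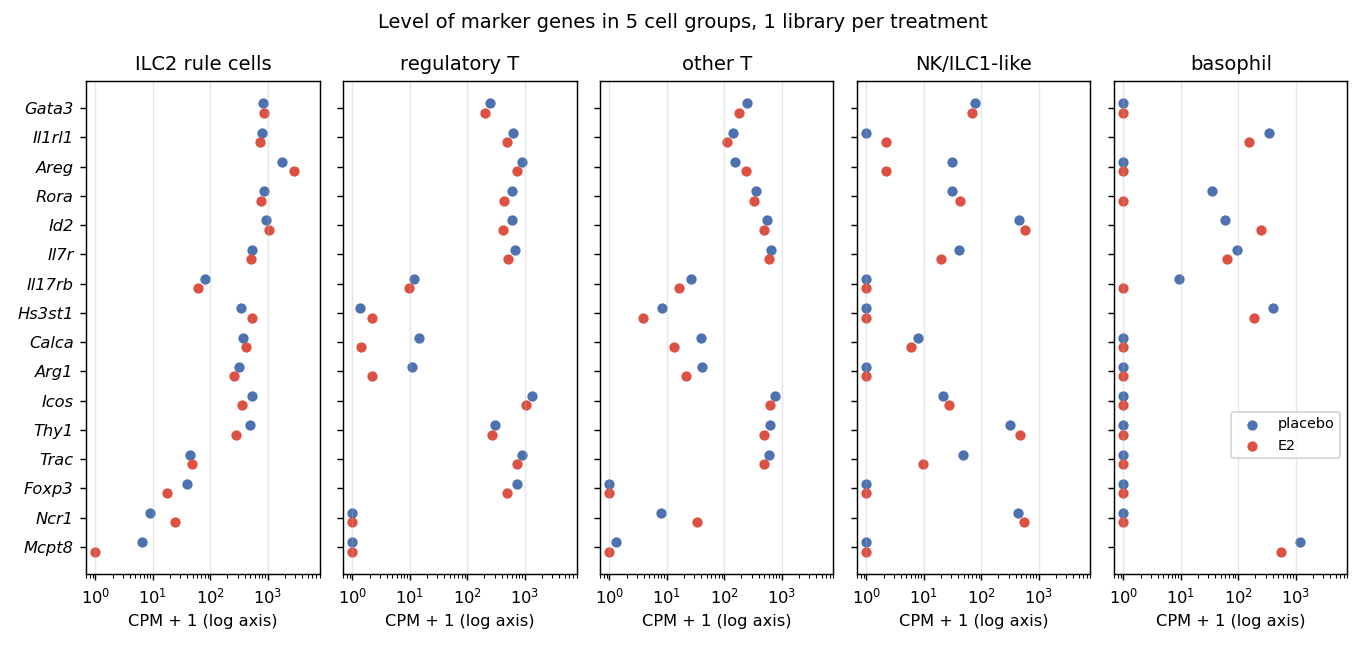
CPM + 1 on a log axis for 16 genes (rows) in the ILC2 and in 4 other cell groups (panels), 1 point per library. Gata3, Il1rl1, Areg, Foxp3, Ncr1 and Mcpt8 helped to define 1 or more of the groups. The points of Hs3st1, Calca, Il17rb and Arg1 lie to the right in the ILC2 panel in both libraries, and Hs3st1 is also high in basophils. Barcodes with 2 or more Csf1r or Csf3r UMIs are not shown. Over all barcodes other than ILC2, Arg1 stood at 266 and 44.1 CPM.

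The genes with the largest excess over all other barcodes in both libraries were led by Calca, which encodes the neuropeptide CGRP, at 367 CPM in placebo and 421 CPM in E2 ILC2 against 9.60 and 2.08 CPM in the other barcodes. Calca was concentrated in few cells, with UMIs in 12 placebo and 7 E2 ILC2. Ramp1, the co-receptor subunit needed for CGRP binding, was broad instead, with UMIs in 41 of 51 and 34 of 39 ILC2. Its level was 833 and 977 CPM against 146 and 149 CPM elsewhere. T cells lay between, with 276 and 316 CPM in regulatory T cells and 309 and 397 CPM in the other T cells. Neither gene was called between the treatments. The log2 ratio of Calca, 0.20, rested on few cells: the 3 highest E2 cells held 84.0% of its UMIs, and it was -0.38 without the top cell of each library and -1.77 without the 4 deepest E2 cells.

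Hs3st1, a heparan sulfate sulfotransferase, stood at 337 and 532 CPM against 13.2 and 22.2 CPM elsewhere, and basophils had 397 and 187 CPM of it. Hlf, a PAR family transcription factor, stood at 318 and 216 CPM, and was at 23.2 and 25.6 CPM in regulatory T cells. Ptpn13, a tyrosine phosphatase, stood at 275 and 317 CPM against 18.7 and 8.39 CPM elsewhere. Rnf128, the ubiquitin ligase GRAIL, was at 218 and 131 CPM against 7.28 and 6.40 CPM. Hilpda, a lipid droplet protein gene induced by hypoxia, was at 647 and 920 CPM against 88.6 and 55.1 CPM. Itgb3 (integrin beta 3), Cxcr6 (the receptor of the chemokine CXCL16), Nrgn (neurogranin, a calmodulin-binding protein), St6galnac2, Ccdc184, Pxdc1 and Ahcyl2 also belonged to the 20 leading genes. So did Csf2 and the X-linked genes Xlr4a and Xlr4c, and not all of the 20 are reported here. The ranking was against all other barcodes, not against each lymphoid group. Cxcr6 stood at 345 and 246 CPM in the ILC2 and at 277 and 252 CPM in the other T cells. Nrgn stood at 119 and 199 CPM in the ILC2 and at 214 and 118 CPM in NK/ILC1-like cells. Reads of Xlr4a and Xlr4c may be split between near-identical copies, so those values are uncertain.

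T cell markers were present in the ILC2 at a lower sum than in T cells. Trac stood at 43.1 and 47.2 CPM in the ILC2 and 889 and 734 CPM in regulatory T cells. Cd8a, Cd8b1, Themis and Trdc, 4 of the 13 T cell markers, had 0 UMIs in ILC2 of both libraries. The summed level of the 13 markers was 1262 and 1206 CPM in the ILC2, against 4187 and 3868 CPM in regulatory T cells and 4067 and 3768 CPM in the other T cells. Trac and the markers at 0 are low members of the list, and most of the sum lies in other members, not all of which are reported here. Foxp3 UMIs were present in 6 placebo and 4 E2 ILC2. The part of T cells with few CD3 UMIs in the values below was not tested.

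Markers of other cell types differed in how low they were. The 11 monocyte and macrophage markers summed to 102 and 108 CPM against 9004 and 15998 CPM in the other barcodes. The 7 neutrophil markers summed to 2.70 and 30.3 CPM against 2694 and 6226 CPM, and the 8 mast cell markers to 135 and 165 CPM against 2980 and 5148 CPM. The 7 basophil markers summed to 221 and 155 CPM, below the 455 and 488 CPM of the other barcodes and above the 14.9 and 22.4 CPM of regulatory T cells. Hdc, the histidine decarboxylase gene, gave 94.4 and 121 CPM of the mast cell sum and Cyp11a1, a steroid-synthesis enzyme gene, 86.3 and 97.7 CPM of the basophil sum. Both lay in few cells. Hdc was found in 4 placebo and 5 E2 cells, with 26 of 35 and 20 of 36 UMIs in the top cell. Cyp11a1 was found in 7 and 4 cells, with 21 of 32 and 13 of 29 UMIs in the top cell. Mcpt2 of the mast cell list and Prss34 of the basophil list were at 0. The 10 NK cell markers summed to 13.5 CPM in placebo and 414 CPM in E2 ILC2, against 104 and 108 CPM in the other barcodes, and 108 UMIs of Gzma, the granzyme A gene, in 1 E2 cell made up most of the latter. The 9 keratinocyte markers summed to 64.7 and 87.6 CPM against 88.5 and 43.4 CPM. Of these, Krt5, Krt14, Krt15, Krt25, Krt27 and Krt71 were at 0, and 17 Epcam UMIs were found in 7 E2 cells and 9 in 8 placebo cells.

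The ILC2 share was 1.46% (1.09 to 1.92%) in placebo and 0.676% (0.481 to 0.924%) in E2. The share was 2.16-fold lower in the E2 library (1.40- to 3.37-fold). Regulatory T cells were 1.96-fold lower (12.8% and 6.52%) and the other T cells 1.98-fold lower (19.3% and 9.73%), while NK/ILC1-like cells had 1.32% and 1.72% of barcodes. Within the 1215 and 1075 barcodes of these 4 lymphoid groups, ILC2 were 4.20% (3.14 to 5.48%) in placebo and 3.63% (2.59 to 4.93%) in E2, a log2 ratio of -0.21 with an interval from -0.85 to 0.42 that includes 0. Barcodes with 2 or more Csf1r or Csf3r UMIs and no CD3 UMI numbered 1143 in placebo and 2899 in E2, so the denominator of the first comparison differed in its makeup. The E2 library was also deeper, with a median of 8108 UMIs per barcode against 5159. When every barcode was thinned to 2000 UMIs before the rule was read, 51 of 3040 placebo and 29 of 5239 E2 barcodes met it. This gave a log2 ratio of -1.60 against -1.11 at full depth. Thinning also lowers the counts that the upper limits read, so the set of cells changed. Only 46 placebo ILC2 held 2000 or more UMIs, so the 51 include barcodes that are not ILC2 at full depth. Ratios given below with the rule read after thinning compare this other set of cells, with all their UMIs.

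**Figure D2:**
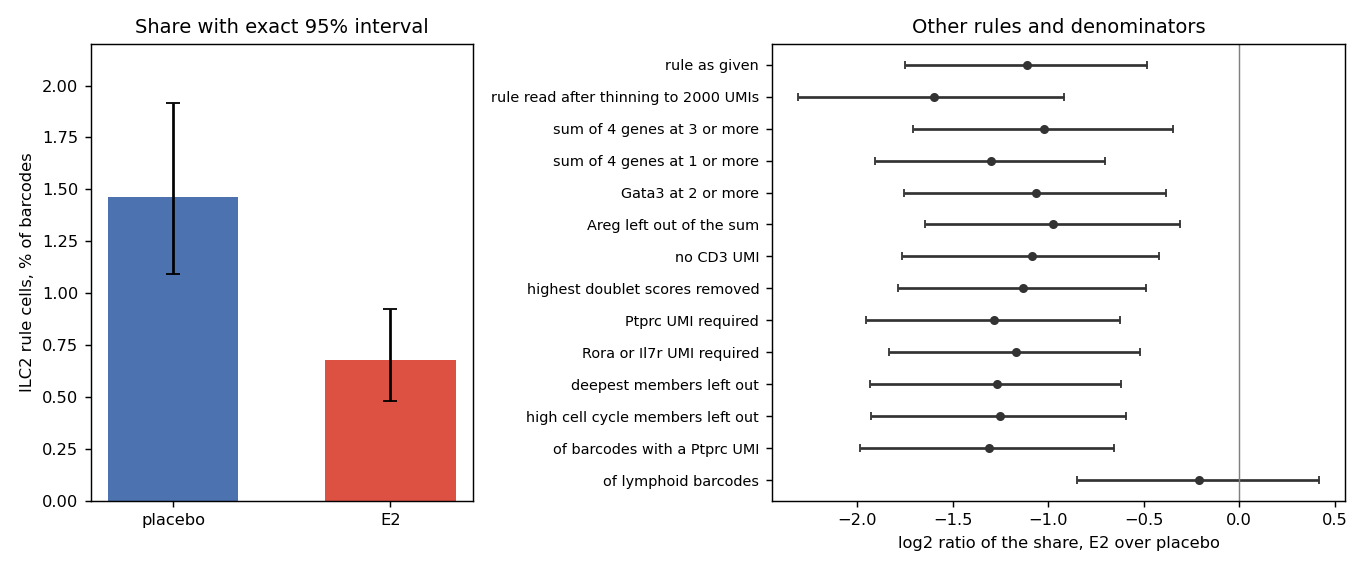
Left, ILC2 as a percentage of barcodes in each library with the exact 95% interval (1.46% and 0.676%). Right, the log2 ratio of that share, E2 over placebo, with its interval, for the rule as given and for 13 other rules or denominators. All intervals lie below 0 except the one among lymphoid barcodes.

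Between treatments, 4619 genes had 20 or more UMIs over the ILC2 of both libraries. A gene was called when log2((CPM E2 + 10)/(CPM placebo + 10)) was past 1.5-fold, a scale that understates the ratio of low genes. Of the genes measured, 417 (9.03%) were at least 1.5-fold higher in the E2 ILC2 and 710 (15.4%) at least 1.5-fold lower, with a median log2 ratio of -0.08. Higher genes made up 37.0% of the calls, and 48.7% when the median ratio was set to 1 in place of equal total UMIs. Ratios below are on this log2 scale unless a CPM fold with its interval is given.

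The secreted mediators Ccl1 and Csf2 were higher in the E2 ILC2. Ccl1, a chemokine that attracts cells bearing CCR8, stood at 119 CPM (44 UMIs in 12 cells) in placebo and 1506 CPM (447 UMIs in 13 cells) in E2, 12.7-fold higher (9.30 to 17.7), a log2 ratio of 3.56. Csf2, which encodes GM-CSF, stood at 232 CPM (86 UMIs in 10 cells) and 1446 CPM (429 UMIs in 12 cells), 6.24-fold higher (4.94 to 7.95), a log2 ratio of 2.59. Both genes were found in a small part of the cells, Ccl1 in 23.5% of placebo and 33.3% of E2 ILC2 and Csf2 in 19.6% and 30.8%. In the E2 library the 3 highest cells held 120, 110 and 74 Ccl1 UMIs and 160, 140 and 63 Csf2 UMIs, whereas the highest placebo cells held 12 and 33. Without the top cell of each library the log2 ratios were 3.53 and 2.58. They were 3.72 and 2.49 without the 4 deepest E2 cells.

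At 2000 UMIs per cell, Ccl1 was detected in 15.2% of placebo ILC2 (6.34 to 28.9%) and 34.5% of E2 ILC2 (17.9 to 54.3%), and Csf2 in 10.9% (3.62 to 23.6%) and 24.1% (10.3 to 43.5%). These intervals overlap. In the Csf1r or Csf3r barcodes both genes were detected in 0.0920% and 0.0353% of cells. In the other T cells the summed levels went the other way, with log2 ratios of -0.63 for Ccl1 and -0.88 for Csf2. These rested on few cells, 19 placebo and 13 E2 cells with Ccl1 and 14 and 15 with Csf2. The share of the other T cells with a Csf2 UMI was not lower in E2, at 2.08% and 2.67%. In regulatory T cells the ratios were -0.85 and -0.59, near the floor. There 4 placebo cells held Ccl1 and 2 held Csf2 (7.98 and 5.08 CPM), and 0 E2 cells held either. The difference between cell types was not tested.

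The type 2 cytokines lie in a cluster on chromosome 11 that also holds Csf2 (GENCODE M21, GRCm38). In it are Il4 (chr11:53602982-53618669), Il13 (chr11:53631324-53634702), Il5 (chr11:53720794-53725106), Irf1 (chr11:53770014-53778374) and Csf2 (chr11:54247271-54249667). Il13 and Il5 belong to the rule, so their levels are a description. Il13 stood at 253 CPM in placebo and 819 CPM in E2 ILC2, with UMIs in 15 and 11 cells. The 3 highest cells held 54.3% of its UMIs in placebo and 84.0% in E2, where 1 cell alone held 127. Il5 stood at 62.0 and 162 CPM, in 10 and 12 cells. Il4 stood at 24.3 and 57.3 CPM (9 and 17 UMIs, log2 ratio 0.97), and its CPM ratio had an interval from 0.995 to 6.01 that includes 1. Irf1, an interferon-induced transcription factor inside the same cluster, went the other way at 97.0 and 40.4 CPM (log2 ratio -1.09), and Il3, next to Csf2, had 0 UMIs. Rad50, a DNA repair gene between Il13 and Il5, stood at 89.0 and 135 CPM (log2 ratio 0.55).

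The sharing of these transcripts by single cells is a description, since Il13 and Il5 belong to the rule. Of the E2 ILC2 with Il13 UMIs, 8 of 11 also held Csf2 and 7 of 11 held Il5. In placebo the same counts were 3 of 15 for each. Cells with Il13 were deeper than the others, with medians of 12256 against 5788 UMIs in E2 and 10144 against 6692 UMIs in placebo, and the part of depth in the joint detection was not tested. Csf2 and Il5 were found together in 6 placebo and 7 E2 cells. The cell with the most Il13 (127 UMIs) held 160 Csf2 UMIs, 110 Ccl1 UMIs and 207 Areg UMIs, the highest Csf2 and Areg counts of any ILC2.

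**Figure D3:**
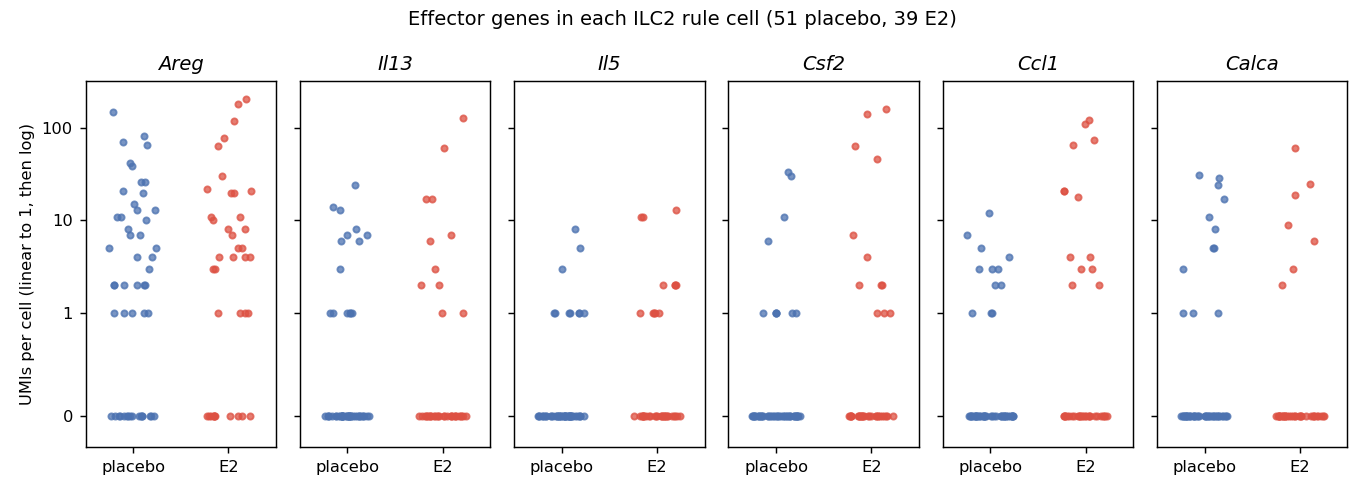
UMIs per cell of 6 effector genes in each of the 51 placebo and 39 E2 ILC2, 1 point per cell, on an axis that is linear to 1 and logarithmic above. Cells at 0 form the lowest row. For Csf2 and Ccl1 the highest E2 cells (160 and 120 UMIs) lie above the highest placebo cells (33 and 12 UMIs), while the spread of Calca overlaps.

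The stretches of 250 bases before the start sites of Il13, Il5, Csf2 and Ccl1 are shown because the summed levels of these genes were higher in the E2 ILC2. They were also chosen because 3 of the genes share a locus read by GATA3 in type 2 lymphocytes. Il13 and Il5 belong to the rule, so their difference is a description, and that of Il5 depended on the setting. Sequences are from RefSeq on build GRCm38.p6 and run 5′ to 3′ along the gene. For Csf2 and Ccl1 the RefSeq start is not the outer end of the GENCODE gene, and the stretch is placed by RefSeq. Capitals mark each match to the GATA word AGATAA, its variant AGATAG, the form TGATAA that starts with T, or its own variant TGATAG, on either strand. Each of the 4 stretches held 1 match, at base 170 for Il13, 179 for Il5, 4 for Csf2 and 220 for Ccl1. Of 32851 mouse stretches of the same length, 26.5% held at least 1, and the stretch before Areg (chr5:91139349-91139598, plus strand) held 0. The stretches before both RefSeq starts of Il1rl1, whose level was within 1.5-fold between libraries, held 5 and 1. A match is a description of letters and not of a bound site.
Il13 (chr11:53634703-53634952, minus strand): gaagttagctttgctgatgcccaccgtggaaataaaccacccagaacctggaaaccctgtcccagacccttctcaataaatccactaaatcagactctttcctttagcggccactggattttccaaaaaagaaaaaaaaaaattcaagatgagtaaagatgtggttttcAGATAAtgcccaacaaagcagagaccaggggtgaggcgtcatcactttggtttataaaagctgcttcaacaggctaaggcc
Il5 (chr11:53720544-53720793, plus strand): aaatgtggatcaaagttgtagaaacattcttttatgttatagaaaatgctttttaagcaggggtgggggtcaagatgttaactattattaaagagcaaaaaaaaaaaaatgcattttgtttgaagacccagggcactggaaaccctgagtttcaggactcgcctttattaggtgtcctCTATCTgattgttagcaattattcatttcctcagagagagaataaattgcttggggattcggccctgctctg
Csf2 (chr11:54249900-54250149, minus strand): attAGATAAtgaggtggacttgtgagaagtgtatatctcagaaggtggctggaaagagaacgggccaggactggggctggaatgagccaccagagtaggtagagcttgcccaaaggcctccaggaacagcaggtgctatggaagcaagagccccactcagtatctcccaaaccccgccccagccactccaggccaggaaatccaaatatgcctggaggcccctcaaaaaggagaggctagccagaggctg
Ccl1 (chr11:82179813-82180062, minus strand): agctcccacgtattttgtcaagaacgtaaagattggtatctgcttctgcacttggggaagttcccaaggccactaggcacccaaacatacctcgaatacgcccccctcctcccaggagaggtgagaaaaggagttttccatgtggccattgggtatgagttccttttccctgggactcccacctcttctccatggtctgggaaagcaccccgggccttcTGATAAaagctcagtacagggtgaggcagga

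Of the 22 effector cytokines and growth factors outside the rule, 13 were measured, of which 5 were called higher and 2 lower. Over all genes measured, 9.03% were called higher and 15.4% lower. The list's median was 0.20 against -0.08 over all genes, and its sign depended on the setting. It was -0.14 without the top cell of each gene (9 genes measured) and -0.23 with the ILC2 thinned to 2000 UMIs (5 measured). With each cell weighted alike it was -0.05, and with Gata3 at 2 or more it was 0.52. Il2 stood at 35.0 and 165 CPM, but 45 of its 49 E2 UMIs lay in 1 cell, and the log2 ratio turned from 1.96 to -0.65 without the top cells. Tnfsf11, which encodes RANKL, stood at 24.3 and 57.3 CPM (log2 ratio 0.97, interval of the CPM ratio 0.995 to 6.01). Tnf stood at 53.9 and 20.2 CPM (log2 ratio -1.08, -0.56 without the top cells). Xcl1, a chemokine for cross-presenting dendritic cells, had 20 UMIs in 3 placebo cells and 0 in E2. Furin, a proprotein convertase, stood at 1076 and 714 CPM, a log2 ratio of -0.58 that just missed the call.

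Of 29 identity genes outside the rule, 25 were measured, with 1 called higher, 6 lower and a median of -0.24, beside 9.03%, 15.4% and -0.08 for all genes measured. Hs3st1 was the one called higher (log2 ratio 0.64, but 0.19 without the top cell of each library). Tcf7, the transcription factor TCF-1 of early ILC, stood at 62.0 and 20.2 CPM (log2 ratio -1.25, but -0.03 when the rule was read after thinning). Tox, a factor needed for ILC development, stood at 91.7 and 37.1 CPM (log2 ratio -1.11, but 1.09 when the cells were thinned to 2000 UMIs). Thy1, the surface protein CD90, stood at 485 and 280 CPM, 1.74-fold lower in E2 (1.33 to 2.28), with a log2 ratio of -0.77 that was -0.31 when the rule was read after thinning. Rora was within 1.5-fold between the libraries (log2 ratio -0.16), as was Il7r at 534 and 502 CPM.

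Among the 28 lineage transcription factors, 24 were measured, with 0 called higher, 7 lower and a median of -0.29 (all genes: 9.03%, 15.4% and -0.08). Ikzf1 and Ikzf3 (Ikaros and Aiolos, lymphoid zinc finger factors) stood at 243 and 138 CPM and at 224 and 115 CPM. Nfil3, a factor of early ILC commitment, stood at 143 and 70.8 CPM. In the same list the median ratio was -0.38 in regulatory T cells and -0.16 in the other T cells.

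Of 25 cytokine and alarmin receptor genes 22 were measured, with 0 called higher, 7 lower and a median of -0.25, against 9.03% higher, 15.4% lower and -0.08 over all genes. Tgfbr2, the TGF-beta receptor type II, stood at 191 and 84.2 CPM, with UMIs in 32 and 14 cells, 2.27-fold lower (1.42 to 3.74). Tgfbr1, its partner, stood at 45.8 and 13.5 CPM (17 and 4 UMIs). Ifngr1, the interferon gamma receptor chain through which ILC2 are restrained, stood at 553 and 347 CPM (log2 ratio -0.66). Csf2rb, part of the GM-CSF receptor, had 20 UMIs in placebo, 19 of them in 1 cell, and 0 in E2.

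Ramp3, a receptor activity-modifying protein for the adrenomedullin receptor, was one of the most separated genes of the neuropeptide and lipid mediator list. It stood at 148 CPM (55 UMIs in 18 cells) and 27.0 CPM (8 UMIs in 8 cells), 5.50-fold lower in E2 (2.60 to 13.4). Lgals1, the galectin 1 gene, was the 1 gene of that list called higher, at 776 and 1301 CPM (log2 ratio 0.74, but 0.42 with the rule read after thinning). The other 6 measured genes of the list were within 1.5-fold (all genes: 9.03% called higher and 15.4% lower). Among them, Ltb4r1, a leukotriene B4 receptor, stood at 251 and 189 CPM and Ptgir, the prostacyclin receptor, at 89.0 and 118 CPM.

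Of 24 genes of tissue residence and recirculation, 15 were measured and 12 had a ratio below 0, while 43.4% of all genes measured were above 0. In the list 6 were called lower and 0 higher, beside 15.4% and 9.03% of all genes. The median was -0.54 against -0.08 over all genes. With the rule read after thinning, 4 of 19 measured were called lower and the median was -0.22. The list's median was -0.22 in regulatory T cells and -0.11 in the other T cells. Itgae, the integrin chain CD103 that binds E-cadherin, stood at 205 CPM (76 UMIs in 21 cells) and 57.3 CPM (17 UMIs in 6 cells), 3.58-fold lower (2.09 to 6.46). Its log2 ratio of -1.68 was -0.15 when the rule was read after thinning and -0.88 when each cell was weighted alike. Itgae stood higher in regulatory T cells (528 and 352 CPM) and in the other T cells (360 and 240 CPM). It was lower in E2 in both of these groups too, with a log2 ratio of -0.57 in each. Cd69, which keeps lymphocytes from leaving tissue, stood at 251 and 111 CPM, 2.25-fold lower (1.501 to 3.46), a log2 ratio of -1.11 that was -0.27 with the rule read after thinning and -0.40 with the ILC2 thinned. Rgs1, a regulator of G protein signalling common in resident lymphocytes, stood at 871 and 435 CPM, 2.003-fold lower (1.63 to 2.48), with UMIs in 39 and 21 cells. Its log2 ratio of -0.99 was -0.39 with the rule read after thinning and -0.56 with the sum of Il1rl1, Il13, Il5 and Areg at 3 or more. Klf2, which promotes recirculation, was also lower, at 70.1 and 13.5 CPM (26 and 4 UMIs), and its log2 ratio turned from -1.77 to 0.18 when the rule was read after thinning.

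Of 35 genes in the immediate-early and NF-kappaB list, 29 were measured, with 0 called higher, 5 lower, a share close to the 15.4% over all genes, and a median of -0.11. Egr1, an early transcription factor of receptor signalling, stood at 418 CPM (155 UMIs in 20 cells) and 84.2 CPM (25 UMIs in 11 cells), 4.96-fold lower (3.24 to 7.90). Ier2 stood at 741 and 391 CPM (log2 ratio -0.91, but -0.57 with the rule read after thinning) and Zfp36, which destabilises cytokine messengers, at 358 and 209 CPM. In regulatory T cells the log2 ratio of Egr1 was 0.01, and in the other T cells it was -0.21.

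Among the 22 costimulatory and inhibitory receptor genes, 17 were measured, with 2 called higher, 4 lower and a median of -0.19 (all genes: 9.03%, 15.4% and -0.08). Tnfrsf9, which encodes 4-1BB, stood at 116 and 37.1 CPM, 3.13-fold lower in E2 (1.59 to 6.72). Icos, a costimulator that sustains ILC2, stood at 528 and 357 CPM (log2 ratio -0.55), short of the call. Cd81, a tetraspanin, was called higher at 154 and 246 CPM, but its log2 ratio of 0.65 was 0.25 without the top cells.

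Other genes chosen for the size of their difference were lower in E2. Klf7, a Krüppel-like transcription factor on chromosome 1 (chr1:64029447-64122282), stood at 116 CPM (43 UMIs in 22 cells) and 16.8 CPM (5 UMIs in 5 cells), 6.88-fold lower (2.73 to 22.3). Jag1, a Notch ligand, stood at 186 and 57.3 CPM, 3.25-fold lower (1.89 to 5.89). Smarca2, an ATPase of the SWI/SNF complex, stood at 89.0 and 20.2 CPM. Its log2 ratio of -1.71 was -0.34 when the rule was read after thinning. Hk2, the inducible hexokinase, stood at 111 and 27.0 CPM, with UMIs in 22 and 6 cells. Uso1, Lims1 and Endod1 had log2 ratios of -1.86, -1.84 and -1.82, each with 27 to 32 UMIs in placebo and 4 or 5 in E2. Gch1, which makes the cofactor tetrahydrobiopterin, was higher in E2 at 37.7 and 145 CPM, 3.84-fold (2.06 to 7.60), with UMIs in 10 cells of each library.

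**Figure D4:**
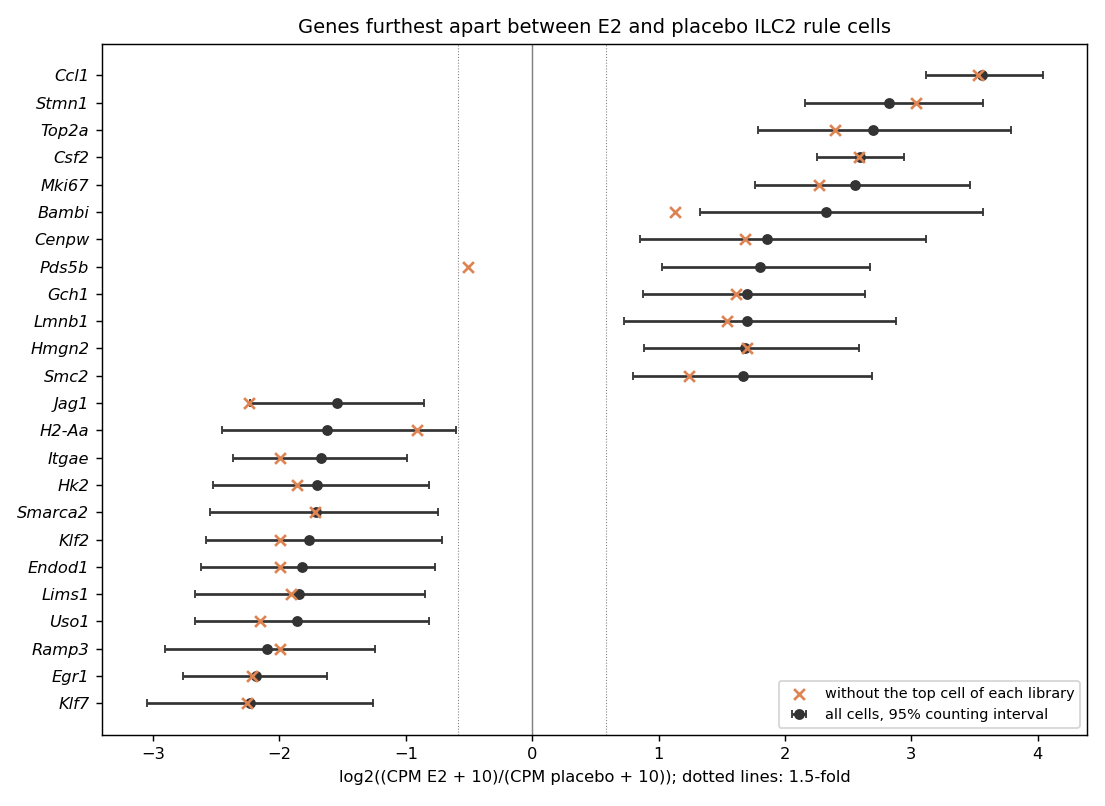
Log2 ratios, E2 over placebo, of the 12 highest and 12 lowest genes by a rule of size, with 95% counting intervals (points and bars) and the value without the top cell of each library (crosses). The crosses of Ccl1, Csf2, Egr1 and Klf7 lie close to their points, and that of Pds5b lies on the other side of 0.

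Cell cycle genes were higher in the E2 ILC2, with most of their UMIs in the deepest cells. All 18 measured of 29 had a ratio above 0 and 15 were called higher, beside 43.4% and 9.03% of all genes measured. The list's median was 1.64, against 0.50 in regulatory T cells and 0.28 in the other T cells. Stmn1 (a tubulin-binding protein of dividing cells) stood at 53.9 and 441 CPM, Top2a (topoisomerase II alpha) at 27.0 and 229 CPM and Mki67 (the proliferation antigen Ki-67) at 37.7 and 270 CPM. The UMIs of the list per 10000 UMIs had a median of 11.3 in placebo and 12.2 in E2. Values of 50 or more were found in 2 of 51 placebo ILC2 (3.92%, 0.478 to 13.5%) and 5 of 39 E2 ILC2 (12.8%, 4.30 to 27.4%). The 3 highest E2 cells, at 173, 158 and 110, were also the 3 deepest. Without the 4 deepest E2 cells the list's median was -0.03, and the log2 ratio of Mki67 turned from 2.55 to -0.67. With the rule read after thinning, the list's median was -0.02.

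The growth-linked genes Cenpw, Lmnb1, Hmgn2 and Smc2, also among the 12 highest, had log2 ratios of 1.86, 1.70, 1.68 and 1.67. Without the 4 deepest cells Hmgn2 was at -0.01 and Smc2 at -0.49. Lmnb1 was at -0.64 when the rule was read after thinning. Pds5b, a cohesin regulator, had 45 of 52 E2 UMIs in 1 cell and turned from 1.80 to -0.51 without the top cells. Bambi, a TGF-beta pseudoreceptor, had 30 of 44 in 1 cell and went from 2.33 to 1.13.

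**Figure D5:**
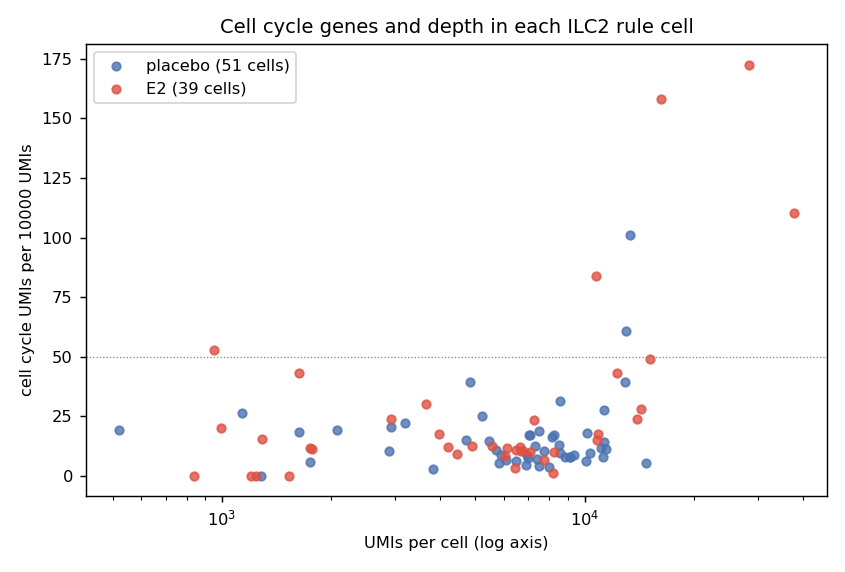
UMIs of the 29 cell cycle genes per 10000 UMIs (vertical) against UMIs per cell (horizontal, log axis) in each ILC2, with a dotted line at 50. The 3 E2 cells at 110 to 173 lie to the right of every placebo cell, and all but 2 placebo and 5 E2 cells lie below the line.

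Of the 25 measured hypoxia and glycolysis genes 1 was called higher and 7 lower (9.03% and 15.4% over all genes), with a median of -0.21. Ddit4, a stress-induced inhibitor of mTORC1, stood at 83.6 and 27.0 CPM, and Slc2a3, a glucose transporter, at 62.0 and 20.2 CPM. Of 32 oxidative phosphorylation genes all were measured and 24 had a ratio above 0, against 43.4% of all genes measured. Of the 32, 1 was called, with a median of 0.18 that was 0.02 without the top cells. The same median was 0.22 in regulatory T cells and 0.23 in the other T cells. In the lipid list, Acadl, a mitochondrial acyl-CoA dehydrogenase, was called higher at 59.3 and 131 CPM. Of the list's 15 measured genes 4 were called lower, against 15.4% of all genes. One of these, Lpl, had 20 UMIs in 1 placebo cell and 0 in E2.

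Interferon response genes did not lean to one side. The median of 16 measured interferon gamma response genes was -0.02, with 1 called higher and 3 lower (all genes: 9.03% and 15.4%). Cxcl10 stood at 56.6 and 135 CPM in 7 and 4 cells, and Tapbp, a peptide loading factor, at 253 and 148 CPM. The 6 measured type I interferon genes had a median of 0.05. The 5 measured antigen presentation genes were all below 0 (all genes: 43.4% above 0), with a median of -0.98. Of the 27 placebo H2-Aa UMIs 19 lay in 1 cell. The list's median turned to 1.39 and the log2 ratio of H2-Aa from -1.62 to 1.68 when the rule was read after thinning.

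Genes of type 1 and type 3 lymphocytes were found in single cells. Of 23, 9 were measured, with 2 called higher and 4 lower (all genes: 9.03% and 15.4%). Gzma had 108 UMIs in 1 E2 cell and 0 in placebo, and the 7 E2 UMIs of Ncr1 (NKp46) also lay in 1 cell. Ccl3 had 93 UMIs in 3 placebo cells, 91 of them in 1 cell, and 0 in E2. Il17a, the type 3 cytokine, had 20 UMIs in 2 placebo cells and 1 UMI in E2.

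Steroid receptor genes were measured last. Esr1, the estrogen receptor alpha gene, had 0 UMIs in the ILC2 of both libraries, and the other barcodes had 2.90 and 3.59 CPM, below the level that a count of 0 allows here. Nr3c1, the glucocorticoid receptor gene, stood at 321 and 179 CPM, 1.80-fold lower in E2 (1.29 to 2.53), with UMIs in 40 and 25 cells. It was the 1 gene called among the 11 measured of 17 steroid receptors and co-regulators, whose median was -0.17. Over all genes measured, 9.03% were called higher and 15.4% lower, with a median of -0.08.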

How the data were processed

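Live CD45+ cells of mouse tumours gave 2 libraries, 1 per group. The deposited values are raw UMI counts per gene and barcode, made by the authors with Cell Ranger 3.1.0 on mm10, per the submitters' processing notes. In all, 24545595 UMIs came from 3505 placebo barcodes and 52628133 UMIs from 5791 E2 barcodes. Barcodes with 200 or more genes were kept, and 47310 of 47730 features matched GENCODE M21. No column of another sample was present (0). Members and gene lists were chosen with earlier results of these data known.

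UMIs were summed over the ILC2 of each library, turned into CPM and compared as log2((CPM + 10) ratio) for genes with 20 or more UMIs. With 1 library per group no test was run. Ratios have exact conditional-binomial 95% intervals and shares exact Clopper-Pearson ones, which cover counting error only. A count of 0 was bounded by 3 counts. Shares of cells with a UMI were taken after thinning to 2000 UMIs per cell. Doublets were scored with Scrublet in scanpy 1.11.5, marking 97 placebo and 266 E2 barcodes, since its automatic threshold marked 0.0860% and 1.49%. Marked barcodes were removed in an alternative.

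Named between treatments are the 12 highest and 12 lowest genes with 30 or more UMIs, 50 or more CPM in a library and UMIs in 5 or more cells of the higher library. Ribosomal, mitochondrial, receptor-variable and unnamed gene models and the rule's genes were left out. Against other barcodes the 20 leading genes with 100 or more CPM in both libraries are named, and for each list up to 5 genes of largest ratio. Some genes these rules name are not reported here. Members of the identity, effector, receptor and steroid receptor lists may also be named. Alternatives changed the rule, the pseudocount, the UMI minimum, the scaling, the weight of cells and the depth. Those leaving out the top cell of a gene, the deepest ILC2 or the cycling ILC2 were chosen after seeing the data. Python 3.11.15, numpy 2.4.6, scipy 1.17.1, pandas 2.3.3 and matplotlib 3.10.9 were used. The code of the intervals was run on simulated data in which UMIs were drawn independently, as the intervals assume. That run cannot show how the intervals cover genes whose UMIs gather in few cells.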

Additional observations from a re-analysis of the deposited data

How the results depend on the processing

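The lower share of ILC2 in E2 kept its direction under every rule tried, with log2 ratios from -1.60 to -0.97, and was -0.21 among lymphoid barcodes. The 417 higher and 710 lower genes became 151 and 238 with a pseudocount of 50 CPM, 730 and 1158 with 10 or more UMIs, 110 and 204 with 50 or more UMIs, and 102 and 198 with the ILC2 thinned to 2000 UMIs. The higher genes numbered 628 with each cell weighted alike and 219 without the top cell of each gene, where they were 22.6% of the calls. The thinned and 50-UMI settings measured fewer genes. The rule read after thinning chose a partly different set of cells. For the other changes below the cause was not tested.

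The cell cycle median of 1.64 was -0.019 with the rule read after thinning, -0.031 without the deepest ILC2, 0.46 without cycling ILC2 and 0.36 with thinned ILC2. The antigen presentation median was 1.39 with the rule read after thinning and 0.46 with thinned ILC2. The type 1 and type 3 median was -4.17 with 50 or more UMIs and -5.07 with thinned ILC2. With the rule read after thinning, Lmnb1 was at -0.64, Klf2 at 0.18, H2-Aa at 1.68, Birc5 at -0.93 and Tuba1b at -0.19. Without the deepest ILC2, Mki67 was at -0.67, Pds5b at -0.41, Hmgn2 at -0.0088, Smc2 at -0.49, Birc5 at -0.62 and Tuba1b at -0.75. Without cycling ILC2, Mki67 was at -0.39, Pds5b at -0.35, Smc2 at -0.59 and Tuba1b at -0.70. With thinned ILC2, Smc2 was at -0.060 and Tox at 1.09. Without the top cell, Pds5b was at -0.51 and Il2 at -0.65. Of the other single-gene values, 809 moved by less than their counting interval and 84 by more, without a change of sign among called values. No paired analysis was possible because each group has 1 library.

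Depth limits what 51 and 39 cells can show: 1 UMI is worth 2.70 CPM in placebo and 3.37 CPM in E2 ILC2. No interval of a CPM ratio covers the spread between cells, and no interval covers variation between mice or libraries.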
